A study of Mus musculus with 15 samples.

Results

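Ribosome footprints of 10 imprinted genes were followed across 9 clones of 1 mouse embryonic stem cell (mESC) line. The genes were *Grb10*, *Igf2r*, *Peg3*, *Mest*, *Peg10*, *Sgce*, *Plagl1*, *Cdkn1c*, *Impact* and *Zrsr1*, each represented by 1 of the 21727 transcripts in the count table, and they were chosen by name with their levels per clone already known. Levels in single clones are therefore given as a description, without a test. Of the 10 genes, 9 passed the low-count filter that left 10085 transcripts for testing (CPM, the count scaled to library size, above 2 in 14 or more of the 15 libraries), and *Plagl1* did not.

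All cells were E14Tg2a.4 mESCs grown on gelatin in serum with LIF and treated with cycloheximide before lysis. In 3 clones a C-terminal 3xFLAG tag had been inserted by CRISPR into both alleles of *Rps27* (clones 2b12, 2c3 and 2c4, labelled eS27-FLAG), and in 3 others into both alleles of *Rps27l* (clones 4a2, 4a3 and 4b7, labelled eS27L-FLAG). The remaining 3 clones were WT without a tag (5a1, 5a2 and 5a3). Libraries of ribosome-protected fragments were made from the whole ribosome pool of each clone (total RPFs, 9 libraries) and, for the tagged clones, also from the ribosomes that anti-FLAG pulled down (IP RPFs, 6 libraries). Each sample is 1 independently selected clone, so that the spread within a line is a spread between clones. Clones 2b12, 4a2 and 5a1 were replicate 1, clones 2c3, 4a3 and 5a2 replicate 2, and clones 2c4, 4b7 and 5a3 replicate 3, and the barcoded fragments of 1 replicate were pooled before rRNA depletion and reverse transcription, so that a replicate number marks a library preparation pool.

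An imprinted gene is transcribed mainly from the allele of 1 parent, because DNA methylation laid down in the egg or sperm marks the parental copies differently and is maintained in the embryo. Loss or gain of such a mark changes how many alleles of a locus are active, and cultured mESCs are known to be prone to it. *Grb10*, *Igf2r* and *Cdkn1c* are expressed mainly from the maternal allele in most tissues, and *Peg3*, *Mest*, *Peg10*, *Sgce*, *Plagl1*, *Impact* and *Zrsr1* mainly from the paternal allele. Many of these proteins act on growth: Grb10 is an adaptor that restrains insulin and IGF receptor signalling, Igf2r clears the growth factor Igf2, and Cdkn1c inhibits cyclin-dependent kinases. The counts do not separate maternal from paternal reads, so the allele of origin was not measured. Footprint counts also combine the amount of an mRNA with its translation, and in a culture, fewer expressing cells and less RNA per cell cannot be told apart.

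The 10 loci lie on 6 chromosomes of GRCm38, and *Grb10* and *Zrsr1* share chromosome 11. The *Grb10* transcript (ENSMUST00000093321) spans chr11:11930508-12037401 on the minus strand with 15 coding exons. *Zrsr1* (ENSMUST00000049506) is a single-exon gene at chr11:22972005-22976496 on the plus strand. *Peg10* (chr6:4747306-4760517, plus strand) and *Sgce* (chr6:4674350-4747176, minus strand) are divergent neighbours, and *Mest* lies on the same chromosome at chr6:30738050-30748462. *Peg3* (chr7:6703892-6730421) and *Cdkn1c* (chr7:143458342-143461050) lie towards opposite ends of chromosome 7. *Igf2r* is at chr17:12682406-12769664 and *Plagl1* at chr10:13090788-13131694, and the position of *Impact* is given with its levels. No 28-nt window of the coding sequence of 8 of the members occurred in another coding sequence of the table, whereas 20 of 2085 windows of *Plagl1* and 12 of 1257 of *Zrsr1* did, the latter shared with *Zrsr2*.

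The bases before the transcription starts of *Grb10* and *Zrsr1* are shown because both genes lie on chromosome 11 and *Zrsr1* was highest in the clones in which *Grb10* was lowest. They come from RefSeq windows on GRCm38.p6 that reach from 250 bases before to 50 bases after a start, and bases within any annotated exon were left out. *Grb10* has 2 annotated starts, with runs at chr11:12037429-12037670 and chr11:12027972-12028221 (minus strand, printed 5′ to 3′), and the run of *Zrsr1* is chr11:22971755-22972004 (plus strand). Capitals mark CpG dinucleotides, the sites of the DNA methylation on which imprints rest.
Grb10 start 1: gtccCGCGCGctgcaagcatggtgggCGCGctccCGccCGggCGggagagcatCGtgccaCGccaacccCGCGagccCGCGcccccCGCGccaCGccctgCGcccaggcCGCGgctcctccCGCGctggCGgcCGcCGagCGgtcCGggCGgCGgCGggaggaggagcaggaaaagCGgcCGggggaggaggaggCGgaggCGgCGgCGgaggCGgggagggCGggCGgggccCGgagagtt
Grb10 start 2: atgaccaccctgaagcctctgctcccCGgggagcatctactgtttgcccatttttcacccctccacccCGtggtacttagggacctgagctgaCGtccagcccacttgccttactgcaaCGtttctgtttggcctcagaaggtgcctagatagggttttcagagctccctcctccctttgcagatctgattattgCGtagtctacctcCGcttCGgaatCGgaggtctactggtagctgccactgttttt
Zrsr1 start: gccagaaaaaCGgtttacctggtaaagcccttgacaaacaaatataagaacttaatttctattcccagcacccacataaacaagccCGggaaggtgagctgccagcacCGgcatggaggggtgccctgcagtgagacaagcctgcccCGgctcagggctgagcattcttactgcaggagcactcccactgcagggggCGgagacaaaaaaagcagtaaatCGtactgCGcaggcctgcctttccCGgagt
The first *Grb10* run is a CpG island with 40 CpG in 242 bases, while the second holds 8 in 250 bases, as does that of *Zrsr1*. Over whole 300-base windows the counts were 45, 9 and 10, against a median of 7 over 32851 windows, and 1.93% of windows had as many CpG as the first *Grb10* window. Windows were given for 6 of the 10 members. The hexamer TGCCGC (either strand), which the imprint-protecting factor Zfp57 recognises in its methylated form, occurs in 11.6% of all windows. Among the members it was found once in the first *Grb10* window, within the transcribed part, once in the *Plagl1* window, and 2 times in each of 2 overlapping windows of *Mest*. It was not found in the windows of *Zrsr1*, *Peg3*, *Igf2r*, the second *Grb10* start or the remaining start of *Mest*. Methylation itself was not measured, and whether any of these windows carries the imprint of its gene was not examined.

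The members differed in how far their level varied between clones. The spread was taken as the SD of log2 normalized CPM over the 9 total RPF libraries. Its median was 0.464 over the 9 tested members and 0.163 over all 10085 transcripts, and the SD of 8 of the 9 exceeded the latter. A range of more than 1 log2 unit between the highest and lowest clone was seen for 6 of the 9 tested members (66.7%) and for 1323 of all transcripts (13.1%). The 6 include *Sgce* and *Zrsr1*, with 18 to 64 and 37 to 125 counts per total library, where counting error adds to the range. The members were chosen with their clone levels known, and all transcripts were not matched to them in level. The contrast therefore says nothing on imprinted genes in general. *Grb10* had the third highest SD of the 10085 tested transcripts (1.46, rank 3), followed among the members by *Peg3* (0.709, rank 68), *Zrsr1* (0.507, rank 338), *Impact* (0.491, rank 377) and *Sgce* (0.464, rank 462). Transcripts below the low-count filter were not ranked, and some had a higher SD, such as *Plagl1* (2.02) and the imprinted gene *Nnat* (2.9). *Peg10* (0.381, with a range of 1.00 that falls to 0.998 with DESeq2's size factors), *Cdkn1c* (0.280), *Mest* (0.266) and *Igf2r* (0.157) varied less.

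**Figure D1:**
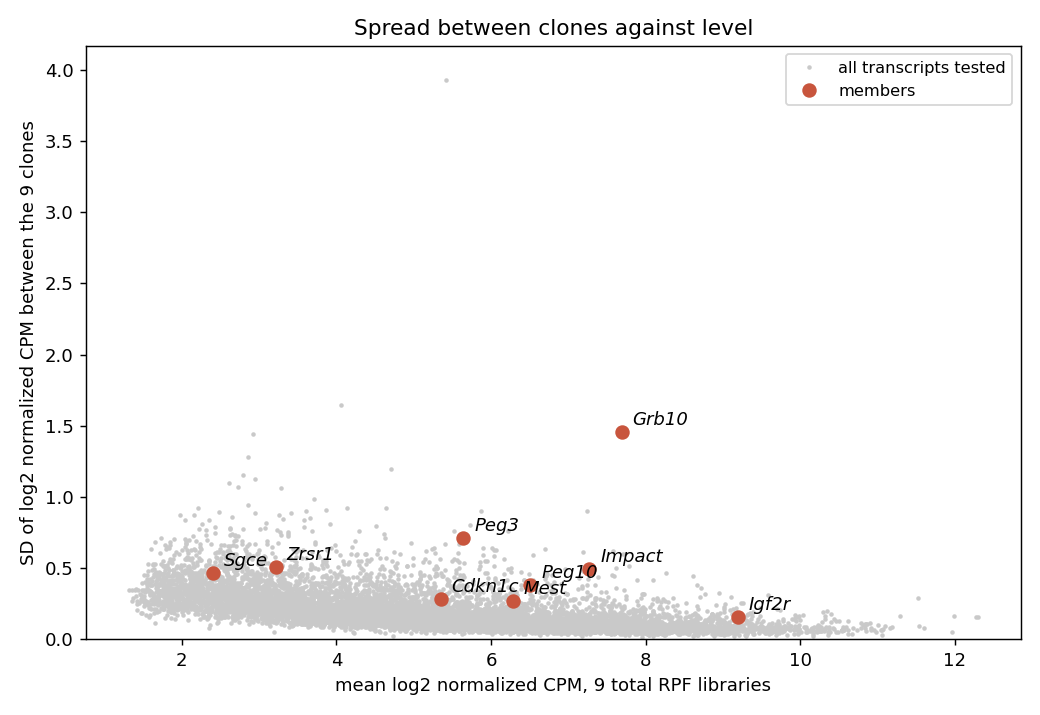
Spread between clones against level: each point is 1 of the 10085 transcripts, placed by its mean log2 normalized CPM (x axis) and its SD between the 9 clones (y axis, log2 units) in the total RPF libraries, with the 9 tested members in red. *Grb10* stands at an SD of 1.46 among abundant transcripts, far above *Igf2r* at 0.157.

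*Grb10* was far lower in a pair of *Rps27l-FLAG* clones than in every other clone, and its highest and lowest clone differed 13.1-fold. In total RPFs its normalized CPM was 36.3 in clone 4a2 and 33.8 in clone 4b7, but 314.0 in 4a3, the third clone of that line. The *Rps27-FLAG* clones had 314.0 (2b12), 325.5 (2c3) and 346.3 (2c4), and the WT clones 442.4 (5a1), 297.0 (5a2) and 373.7 (5a3). Clones 4a2 and 4b7 thus lay apart from the other 7, and nothing lay between 36.3 and 297.0. The counts behind these levels were 279 (exact 95% Poisson interval 247 to 314) in 4a2 and 214 (186 to 245) in 4b7, against 2105 (2020 to 2200) to 3161 (3050 to 3270) elsewhere, with intervals covering counting error only.

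The IP RPFs gave levels close to the total RPFs in each clone. *Grb10* had 38.6 and 31.7 normalized CPM in the IP of 4a2 and 4b7, and 315.3 in that of 4a3. In the IP of the *Rps27-FLAG* clones it had 310.3 (2b12), 327.9 (2c3) and 352.9 (2c4). The low level was also seen within library pools: 4a2 was lowest among the 3 clones of replicate 1 (36.3 against 314.0 and 442.4), and 4b7 among those of replicate 3 (33.8 against 346.3 and 373.7). Per kilobase of counted coding sequence *Grb10* was the most highly translated member, with a median of 181.7 normalized CPM per kb over the 9 clones, but in 4b7 it had 19.6, a level below the median of *Cdkn1c* (43.3) and above that of *Peg3* (12.7).

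**Figure D2:**
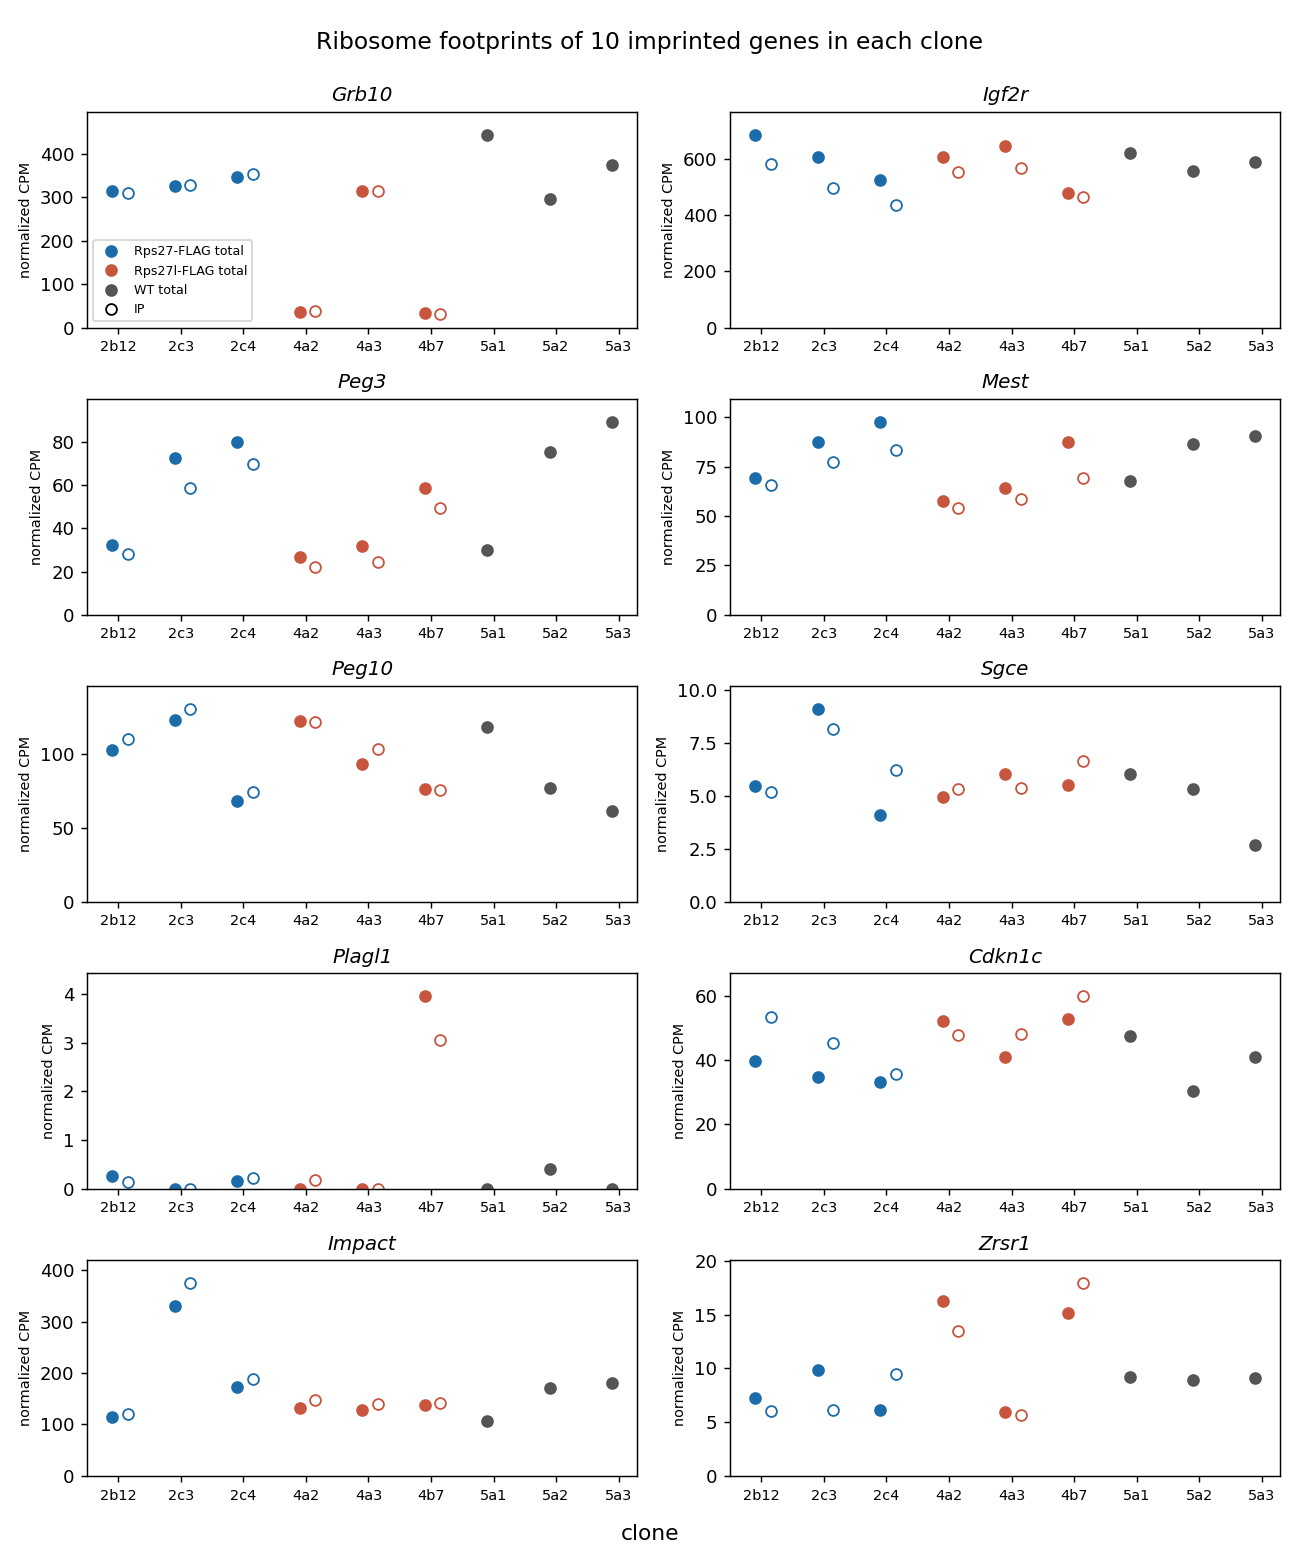
Normalized CPM (y axis, from 0) of the 10 genes in each of the 9 clones (x axis), with filled points for total RPFs and open points for IP RPFs, coloured by line. The points of *Grb10* for clones 4a2 and 4b7 lie between 31.7 and 38.6 in both fractions, those of *Plagl1* rise above 1 in clone 4b7 alone, and *Impact* peaks in clone 2c3.

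The genes next to *Grb10* did not share its pattern. *Cobl*, reported as imprinted in this cluster and encoding an actin nucleator, had 533.4 and 514.4 normalized CPM in clones 4a2 and 4b7, within the 407.2 to 570.9 of the other clones. *Fignl1* on the other side had 218.3 and 206.1, beside 205.4 to 239.1 elsewhere. *Ddc*, which encodes an amino acid decarboxylase, varied more (9.24 to 25.4), with 9.24 in 4a2 and 13.6 in 4b7, but clones with high *Grb10* such as 5a1 (9.38) and 4a3 (9.62) were equally low. The median deviation of the 848 tested transcripts of chromosome 11 lay between -0.0141 and 0.0135 log2 units in every clone.

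The transcripts with the most similar pattern over the 9 total RPF libraries, by Pearson's r with *Grb10* on the log2 scale, were *Atp6v0a4* (r = 0.963), *Pfkl* (0.951), *Epcam* (0.929), *Tpi1* (0.928) and *Mpzl2* (0.927). The most opposite were *Dnpep* (-0.943), *Kat2b* (-0.925), *Slc25a36* (-0.916), *Wsb1* (-0.905) and *Sde2* (-0.891). These values describe a ranking among 10085 transcripts and come from libraries prepared in 3 pools. Without 4a2 and 4b7, over the remaining 7 clones, r was -0.214 for *Atp6v0a4*, -0.475 for *Epcam* and -0.736 for *Mpzl2*, but 0.910 for *Pfkl* and 0.554 for *Tpi1*. Among the opposite transcripts it was -0.894 for *Dnpep* and -0.790 for *Kat2b*, but 0.293 for *Slc25a36*, -0.0806 for *Wsb1* and 0.0646 for *Sde2*. In size the changes were far smaller than that of *Grb10*: *Atp6v0a4*, a proton pump subunit, had 15.6 and 16.8 normalized CPM in 4a2 and 4b7 and 28.6 to 35.5 in the other 7 clones.

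*Zrsr1*, a retrotransposed copy of a gene for a U2AF-related RNA-binding protein, was highest in the clones in which *Grb10* was lowest. Its total RPF level was 16.3 normalized CPM in 4a2 and 15.2 in 4b7, against 5.92 in 4a3. The *Rps27-FLAG* clones had 7.28 (2b12), 9.81 (2c3) and 6.09 (2c4), and the WT clones 9.24, 8.90 and 9.11. The counts are low, at 125 (exact 95% interval 104 to 149) in 4a2 and 96 (77.8 to 117) in 4b7 and 37 to 69 in the other clones, of which the highest, 69 in 2c3, has an interval of 53.7 to 87.3 that overlaps the interval of 4b7 before scaling to library size. In the IP RPFs 4b7 (17.9) and 4a2 (13.5) were again the highest, followed by 2c4 (9.44), and the others had 5.62 to 6.16. *Zrsr1* ranked 31st from the most opposite transcript to *Grb10*, and over the 7 other clones no opposite relation was seen (r = 0.315). *Commd1*, the host gene in whose intron *Zrsr1* lies, had 21.3 to 26.9 normalized CPM in all 9 clones, but 49.9% of its windows are shared with an overlapping gene model, so its level is uncertain.

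**Figure D3:**
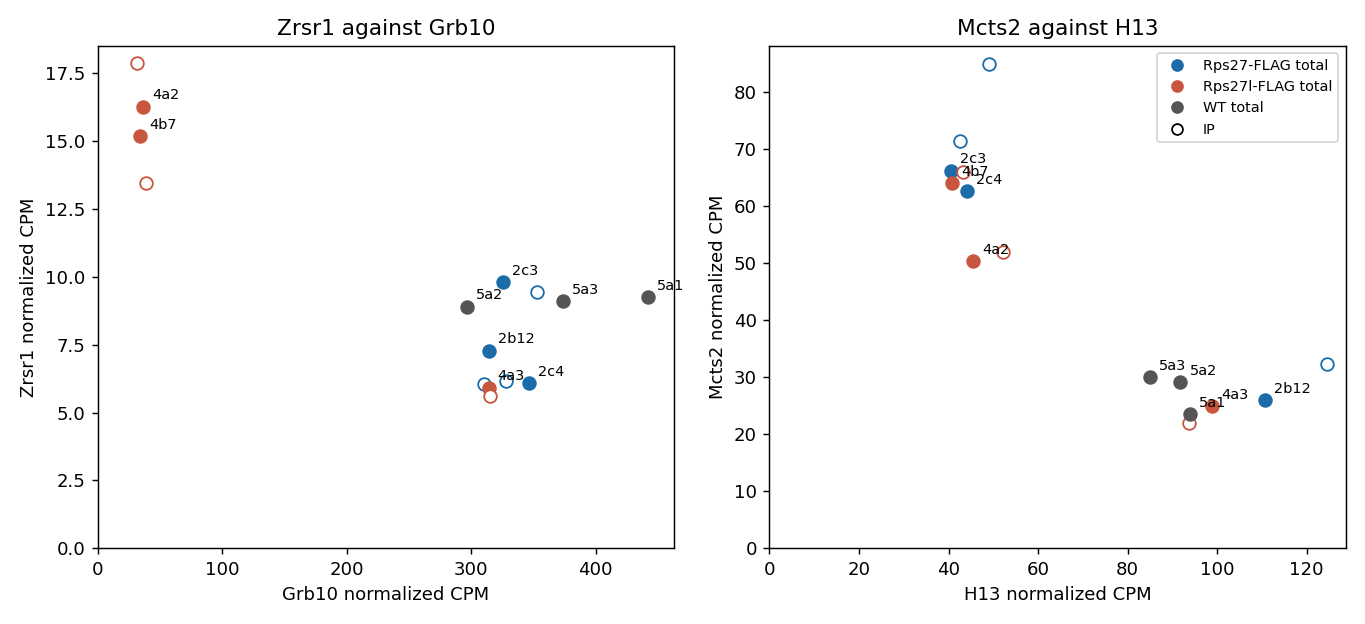
Normalized CPM of *Zrsr1* against *Grb10* (left) and of *Mcts2* against *H13* (right), 1 labelled filled point per clone for total RPFs and open points for IP RPFs, coloured by line, both axes from 0. For *Grb10* and *Zrsr1* clones 4a2 and 4b7 lie at the top left, and for *H13* and *Mcts2* clones 2c3, 2c4, 4a2 and 4b7 lie at the top left and the other 5 at the bottom right.

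*Peg3*, a zinc finger protein gene, varied in every line. Its total RPF level was 26.7 normalized CPM in 4a2, 30.0 in 5a1, 32.1 in 4a3 and 32.2 in 2b12. In the other clones it was 59.0 (4b7), 72.8 (2c3), 75.4 (5a2), 80.0 (2c4) and 89.2 (5a3). The 4 low clones came from all 3 lines, and they include all 3 clones of replicate 1. Within replicate 2, however, 4a3 (32.1) also differed from 2c3 (72.8) and 5a2 (75.4), with counts of 260 (exact 95% interval 229 to 294), 512 (469 to 558) and 567 (521 to 616). The IP RPFs gave 22.3, 24.5 and 28.2 for 4a2, 4a3 and 2b12, and 49.3, 58.6 and 69.8 for 4b7, 2c3 and 2c4.

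*Mest*, which encodes a hydrolase-fold protein, and *Impact*, which encodes an inhibitor of the Gcn2 kinase, had their lowest levels in the same 4 clones. *Mest* had 57.5 (4a2), 64.4 (4a3), 67.6 (5a1) and 69.4 (2b12) normalized CPM there, and 86.4 to 97.4 in the other 5 clones. *Impact* had 107.5 (5a1), 113.9 (2b12), 127.8 (4a3) and 132.8 (4a2), followed closely by 137.0 in 4b7, and then by 171.7 (5a2), 172.4 (2c4) and 181.2 (5a3). The *Impact* locus is at chr18:12971923-12992950 on the plus strand. A much higher level, 330.9, was found in clone 2c3 (2328 counts), and its IP RPFs had 374.5, against 121.0 to 189.2 in the IP of the other tagged clones. Of its 5 tested neighbours *Osbpl1a*, the nearest, had 112.7 in 2c3 and 98.5 to 132.6 elsewhere. *Riok3* had 166.4 in 2c3 and 126.9 to 157.3 elsewhere, and *Npc1* had 137.9 and 90.5 to 142.2. *Rmc1* had 53.0 in 2c3 and 46.8 to 65.9 elsewhere, and *Lama3*, the most variable of the 5, had 11.1 and 5.92 to 16.0.

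The transcript of *Tet1*, a dioxygenase that oxidises 5-methylcytosine, also separated these clones. Its total RPF level was 1.95 (4a2), 2.10 (4a3), 2.43 (2b12) and 3.08 (5a1) normalized CPM, and 416.9 to 431.4 in the other 5 clones. The 4 clones with the lowest *Tet1* were thus the 4 with the lowest *Peg3*, *Mest* and *Impact*, whereas *Grb10* was low in 1 of them (4a2) and in 1 clone with high *Tet1* (4b7). Such a division was common: the levels of these 4 clones and of the other 5 did not overlap for 3 of the 9 tested members and for 23.1% of all tested transcripts. It also held for 4 of 11 markers of other cell types. Of the 11 only *Thy1* passed the low-count filter, so this count cannot be set against the share of tested transcripts. *Pax6*, a neural transcription factor gene, had 0.781 (4a2), 1.11 (4a3), 1.54 (5a1) and 1.92 (2b12) normalized CPM and 11.4 to 19.6 in the others. The other 3 were higher in the 4 clones, namely *Thy1*, a surface protein gene of fibroblasts and other cells (16.7 to 22.3 against 5.76 to 13.02), *Col1a1*, a collagen gene of fibroblasts (5.18 to 8.17 against 1.20 to 4.12), and *Sox17*, a transcription factor gene of endoderm (1.23 to 3.25 against 0.149 to 1.11). The nearest *Sox17* levels on either side, 1.23 in 4a3 and 1.11 in 4b7, are low and close, so its division is uncertain. The summed level of the 11 was 33.9 to 47.3 in the 4 clones and 31.6 to 40.7 in the others. Of 9 embryonic stem cell markers 3 divided the clones in this way, *Klf4* (169.2 to 229.4 against 112.0 to 155.9), *Sox2* (313.3 to 332.1 against 287.6 to 305.7) and *Tfcp2l1* (206.0 to 216.7 against 235.2 to 278.5). The part of *Tet1*, of these markers and of the library pool in the levels of *Peg3*, *Mest* and *Impact* was not tested.

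*Plagl1*, a zinc finger transcription factor gene, was translated above a trace in a single clone. Clone 4b7 had 25 counts in total RPFs (exact 95% interval 16.2 to 36.9, or 3.95 normalized CPM) and 12 in IP RPFs (3.07 normalized CPM). The other 8 total RPF libraries held 0 to 3 counts, and a count of 0 allows up to 3.69. The other 5 IP libraries held 0 or 1 count. The tested genes within 1000 kb of *Plagl1* included *Utrn*, the gene of the dystrophin-related protein utrophin, which was lowest in 5a1 (113.9), 4a2 (124.3), 2b12 (150.3) and 4a3 (181.2). In 4b7 *Utrn* had 223.8, below 2c3 (296.9), 5a3 (305.9), 5a2 (309.9) and 2c4 (318.3).

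The remaining members varied less. *Igf2r* had 478.6 (4b7) to 683.6 (2b12) normalized CPM in total RPFs, a range of 0.514 log2 units beside a median range of 0.483 over all tested transcripts. *Cdkn1c* had 30.4 (5a2) to 52.6 (4b7), with 4b7 and 4a2 (52.2) the highest and 5a1 (47.4) the next. *Peg10*, derived from a retrotransposon, had 61.4 (5a3), 68.3 (2c4), 76.4 (4b7), 77.2 (5a2), 93.4 (4a3), 102.7 (2b12), 118.4 (5a1), 122.5 (4a2) and 123.2 (2c3), so neighbours in this order differed little and the ends 2.01-fold. *Sgce*, the epsilon-sarcoglycan gene next to *Peg10*, was highest in 2c3 as well (9.10) and lowest in 5a3 (2.69), as *Peg10* was, but its counts of 18 to 64 limit that comparison. Per kilobase the medians over the clones were 153.3 for *Impact*, 91.4 for *Mest*, 87.4 for *Peg10*, 81.9 for *Igf2r*, 7.45 for *Zrsr1* and 4.04 for *Sgce*.

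Wider lists of imprinted genes contained other loci that varied between clones. Of the list of genes expressed mainly from the paternal allele, which includes members, 9 of 17 tested had a range over 1 log2 unit (52.9%), and of the list expressed mainly from the maternal allele 3 of 17 (17.6%), beside 13.1% of all transcripts. Without the members, which were chosen with their clone levels known, the counts were 4 of 11 (36.4%; *Dlk1*, *Mcts2*, *Mkrn3* and *Sfmbt2*) and 2 of 14 (14.3%; *H13* and *Slc22a18*). Among tested genes of these lists that are no members, the highest SD belonged to *Mcts2* (0.642), a retrogene within *H13* that encodes a translation factor, and to *H13* itself (0.624), which encodes a signal peptide peptidase. *Mcts2* had 50.4 (4a2), 62.7 (2c4), 64.0 (4b7) and 66.2 (2c3) normalized CPM in total RPFs and 23.5 to 30.0 in the other 5 clones. *H13* showed the reverse, with 45.4, 44.1, 40.8 and 40.5 in those 4 clones and 85.0 to 110.7 in the others. The IP RPFs placed each tagged clone on the same side, with *Mcts2* at 52.0 to 84.9 in the first 4 and 22.0 and 32.3 in 4a3 and 2b12. *Slc22a18*, a transporter gene, was highest in 4b7 (14.4) and lowest in 4a3 (5.43).

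*Nnat*, which encodes a small membrane proteolipid and lay below the filter, had 27 (2c3), 29 (4a3), 33 (2c4) and 31 (4b7) counts in total RPFs, that is 3.58 to 5.43 normalized CPM. In 2b12, 4a2 and 5a2 it had 0, and in 5a1 and 5a3 0.140 and 0.299 normalized CPM. The loci therefore divided the clones differently: *Grb10* separated 4a2 and 4b7, *Peg3* 4a2, 4a3, 2b12 and 5a1, *Mcts2* with *H13* 4a2, 2c3, 2c4 and 4b7, *Nnat* 2c3, 4a3, 2c4 and 4b7, and *Plagl1* 4b7 alone. In each case where both fractions were measured, the IP library of a clone lay on the same side as its total library.

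Differences between the lines were then tested in edgeR with the quasi-likelihood test over all 10085 transcripts and Benjamini-Hochberg adjustment. In total RPFs none of the 9 tested members passed an adjusted p of 0.05 in *Rps27-FLAG* against WT, *Rps27l-FLAG* against WT or *Rps27l-FLAG* against *Rps27-FLAG*, and the share of all transcripts called was 0, 0 and 0%. At an unadjusted p under 0.05 the members passing numbered 0, 1 and 1, and all transcripts 294, 574 and 580. The mean level of *Grb10* was 128.1 ± 161.1 normalized CPM in *Rps27l-FLAG* (SD, n = 3), 328.6 ± 16.4 in *Rps27-FLAG* and 371.0 ± 72.7 in WT. Its log2 fold change in edgeR was -1.52 (SE 0.672, adjusted p = 0.821) against WT and -1.35 (SE 0.670, adjusted p = 0.803) against *Rps27-FLAG*, and -0.18 (SE 0.651, adjusted p = 0.999) for *Rps27-FLAG* against WT. The value depends on which *Rps27l-FLAG* clone is left out: against WT it was -1.08 without 4a2, -1.08 without 4b7 and -3.40 without 4a3, and against *Rps27-FLAG* -0.91, -0.91 and -3.23. *Grb10* passed the threshold without 4a3 and not without 4a2 or 4b7, but since it was chosen for these clone levels, the former is no test of a difference between the lines.

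With the replicate number, which is the library preparation pool, as a block, 144 transcripts passed in *Rps27l-FLAG* against WT (1.43%) and 1 of the 9 members did. This was *Peg3*, with a log2 fold change of -0.69 (SE 0.151, adjusted p = 0.0436 in edgeR), whereas without the block the value was -0.73 (SE 0.442, adjusted p = 0.828). As *Peg3* was chosen with its clone levels known, passing here is no test of a difference between the lines. *Peg3* was lower in the *Rps27l-FLAG* clone than in the WT clone of every replicate, at 26.7 against 30.0, 32.1 against 75.4 and 59.0 against 89.2 normalized CPM. In replicate 1 the counts were 205 (exact 95% interval 178 to 235) in 4a2 and 214 (186 to 245) in 5a1, so those intervals overlap. The log2 fold change of *Grb10* with the block was -1.92 (SE 0.540, adjusted p = 0.117).

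IP RPFs were compared with total RPFs to see whether these mRNAs stood in other proportions in the pull-down than among all ribosomes. No pull-down from WT clones was sequenced, so an effect of the tagged protein and one of the pull-down itself cannot be told apart here. In edgeR without a block none of the 9 tested members passed in either line, while the share of all transcripts that did was 5.67% for *Rps27-FLAG* and 3.10% for *Rps27l-FLAG*. The unadjusted p was under 0.05 for 0 members in both lines, and for 2230 and 1752 of all transcripts. For genes that vary between clones, the spread within a fraction enters this comparison: the SE of the *Grb10* difference in *Rps27l-FLAG* was 1.05 log2 units.

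The 2 fractions of 1 clone are paired by their origin. With the clone as a block 5 of 9 members passed in *Rps27-FLAG*, where 41.2% of all transcripts did, and 4 of 9 passed in *Rps27l-FLAG*, where 31.0% of all transcripts did. Against those shares nothing particular to the members is read from the counts. *Igf2r*, the longest coding sequence among the members (7449 nt), was lower in the IP of all 6 clones, with a log2 fold change of -0.26 (SE 0.0303, adjusted p = 1.37e-16) in *Rps27-FLAG* and -0.12 (SE 0.0290, adjusted p = 5.23e-04) in *Rps27l-FLAG*. *Peg3* was also lower in the IP, with log2 fold changes of -0.24 and -0.29 (adjusted p = 7.18e-04 and 0.00385), and *Mest* with -0.16 and -0.19 (adjusted p = 0.0104 and 0.0118). *Impact* was higher in the IP by 0.15 and 0.12 (adjusted p = 1.47e-04 and 0.0171), and *Cdkn1c* by 0.34 (adjusted p = 2.98e-05) in *Rps27-FLAG*, with 0.08 (adjusted p = 0.427) in *Rps27l-FLAG*. These differences of at most 0.34 log2 units are small beside the range of *Peg3* (1.74) or *Impact* (1.62) between clones.

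*Grb10* did not differ detectably between the fractions of a clone. Its log2 ratio of IP to total was -0.02 (2b12), 0.01 (2c3) and 0.03 (2c4) in *Rps27-FLAG*, and 0.09 (4a2), 0.01 (4a3) and -0.09 (4b7) in *Rps27l-FLAG*. With the clone as a block the difference was 0.01 (SE 0.0313, adjusted p = 0.906) and 0.01 (SE 0.0440, adjusted p = 0.920). The fractions of the low clones, which differ most, had 218 and 279 counts in 4a2 and 124 and 214 in 4b7. For *Zrsr1* and *Sgce*, with under 130 counts per library, the ratio of single clones ran from -0.66 to 0.63 and from -0.15 to 0.59.

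**Figure D4:**
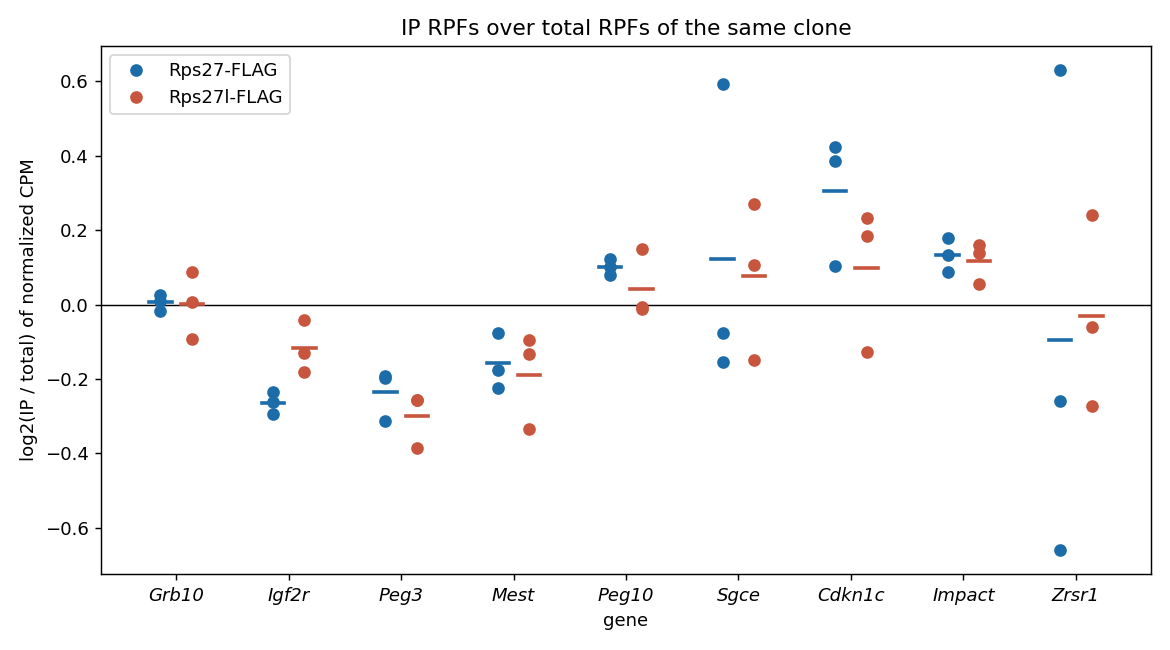
Log2 ratio of IP to total normalized CPM of the same clone (y axis) for the 9 tested members (x axis), 1 point per clone and a bar at the mean of the 3 clones of each line. The points of *Grb10* lie within -0.0918 and 0.0879, those of *Igf2r*, *Peg3* and *Mest* below 0 and those of *Impact* above 0 in all 6 clones.

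The IP effect itself was compared between the lines with clone and fraction within line as terms, where 1.50% of all transcripts passed in edgeR (151) and none of the 9 members did. At an unadjusted p under 0.05 there were 2 members and 1217 transcripts. These were *Igf2r*, with an IP effect higher by 0.14 in *Rps27l-FLAG* than in *Rps27-FLAG* (SE 0.0408, adjusted p = 0.0558), and *Cdkn1c*, with a difference of -0.26 (SE 0.102, adjusted p = 0.244). *Igf2r* lay near the threshold, and passed with voom and limma (adjusted p = 0.0331), with TMM over all 15 libraries (0.0417) and without clone 4a3 (edgeR, adjusted p = 0.0145). For *Grb10* the difference was 0.00238 (SE 0.0539, edgeR, adjusted p = 0.993).

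In the wider lists, 0 of 17 tested genes of the paternal list passed the comparison of IP with total without a block, and 1 of 17 of the maternal list was lower in *Rps27-FLAG*, namely *Copg2* (-0.45, adjusted p = 0.0406 in edgeR), a coatomer subunit gene beside *Mest*. Of all transcripts 5.67% passed in *Rps27-FLAG* and 3.10% in *Rps27l-FLAG*. *Copg2* and *Cobl* were also the genes of these lists whose IP effect differed between the lines in edgeR, by 0.24 (adjusted p = 0.00783) and -0.15 (adjusted p = 0.0269), where 1.50% of all transcripts passed. *Copg2* had its lowest total RPF level, 100.5 normalized CPM, in 4a2, and 154.8 to 196.4 in the other clones.

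The insulin and IGF signalling list, in which Grb10 and Igf2r act, had 25 tested genes of 30. Between the lines none passed without a block. In the IP of *Rps27-FLAG* 5.67% of all transcripts passed, and 539 of the 572 called were lower. Of the list 4 of 25 were lower and none higher, namely *Tsc2* (-0.65), *Pik3cb* (-0.61), *Mtor* (-0.59) and *Rptor* (-0.56), which encode a phosphoinositide kinase subunit and parts or regulators of the mTOR complex. In the IP of *Rps27l-FLAG* 3.10% of all transcripts passed, and 229 of the 313 called were lower. Of the list 3 of 25 were lower, *Rptor* (-0.47), *Tsc2* (-0.44) and *Mtor* (-0.42). The median log2 fold change of the list was -0.18 and -0.16, beside -0.01 and -0.03 over all transcripts tested. Between clones 2 of 25 genes of the list had a range over 1 log2 unit (8.0%, beside 13.1% of all transcripts), *Grb10* and its relative *Grb14* (3.84 to 9.45 normalized CPM). *Foxo3* followed with 45.2 to 88.6.

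Of 8 genes that maintain imprints, 7 had a range under 1 log2 unit between the 9 clones. The 1 with a range over it makes 12.5%, a share near the 13.1% of all transcripts. *Zfp57*, whose product binds the methylated imprint, had 334 to 396 normalized CPM, *Trim28* 2150 to 2880, *Uhrf1* 742 to 935 and *Dnmt1* 736 to 897. *Dppa3* was the gene with the range over 1 log2 unit, with 2.73 in 4a2 to 14.9 in 4a3. In the comparison of IP with total without a block 1 of 8 was lower in each line, *Zfp445* (-0.59 in *Rps27-FLAG*, -0.38 in *Rps27l-FLAG*), another imprint-binding zinc finger gene. Of all transcripts 5.67% and 3.10% passed there.

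All 15 libraries had the markers of embryonic stem cells: *Pou5f1* had 413 to 506 and *Nanog* 598 to 784 normalized CPM, *Klf4* varied most (112 to 239), and the 9 markers of the list summed to 3790 to 4590. The 11 markers of other cell types summed to 31.6 to 47.3, and *T*, *Cdx2* and *Fgf5* were at 0 in at least 1 library. *Pax6* and *Thy1*, given above with *Tet1*, were the highest of the 11, reaching 20.0 and 24.1. The libraries held 3972152 to 8064166 counts.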

How the data were processed

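The authors trimmed reads with cutadapt 2.4, removed duplicates by molecular identifier with UMI-tools 1.0.1, aligned with Bowtie2 2.3.4.3 to GRCm38 transcripts, kept unique alignments and deposited unnormalized counts of A sites per coding sequence without its first 15 and last 5 codons. All 15 columns were used. Transcripts were named and placed with GENCODE M21, in which 21723 of 21727 had an entry. After 13 mitochondrially encoded transcripts had been left out, those with CPM over 2 in at least 14 libraries were tested (10085). TMM factors were computed for IP and total libraries separately, and counts were fitted with the quasi-likelihood test of edgeR 4.0.16 (R 4.3.3), with cell line, fraction, or cell line with clone and fraction within line as terms. Normalized CPM is CPM on the TMM-scaled size of a library, and log2 values had 0.5 counts added first. The SE of an edgeR log2 fold change was derived from the test, as its absolute value divided by the square root of the F statistic. Residuals from condition means correlated with r of 0.468 to 0.790 between IP and total libraries of a clone, and of -0.164 to 0.713 between total libraries with the same replicate number, which pairs them as a library preparation pool. No replicate was a copy of another (chi-square per degree of freedom 1.78 to 10.3). The fits were also run on simulated counts drawn independently for each library. These hold no shared effect of a clone or pool, so they do not test how a block deals with one.

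The members and the gene lists were chosen with earlier results of these data known. All members are named, from the wider lists those past the threshold and the 3 with the highest SD, and the 5 transcripts most and least correlated with *Grb10*. *Tet1*, *Nnat*, neighbouring genes and the markers and list genes beyond these were added after their values were seen. Alternatives were limma 3.58.1 with voom, DESeq2 1.42.0, its size factors, TMM over all libraries, other filters, blocks and leaving out each clone. Figures used Python 3.11.15 and matplotlib 3.10.9.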

Additional observations from a re-analysis of the deposited data

How the results depend on the processing

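The range between clones changed by less than the SD within lines for all 10 members with DESeq2's size factors and with library size alone (3.71 and 3.72 log2 units for *Grb10*, reported as 3.71). Over the 6 tagged clones the range of *Grb10* was 3.47 in the IP libraries against 3.35 in the total libraries. It was 0.646 against 1.13 for *Sgce* and 5.14 against 6.03 for *Plagl1*, both with low counts, and the other members differed less between the fractions. For a count of members passing, the replicate block mattered most: 1 passed with the replicate number as a block in *Rps27l-FLAG* against WT, 5 with the clone as a block in IP against total of *Rps27-FLAG* and 4 in that of *Rps27l-FLAG*, against 0 without. For the IP effect between the lines 1 member passed with voom and limma, 1 with TMM over all 15 libraries and 0 without the replicate block. The log2 fold change of *Grb10* in total RPFs of *Rps27l-FLAG* against WT was -2.27 with voom and limma and -1.54 with DESeq2, against -1.52 in edgeR. Leaving out single clones gave 0 to 1 member in both total comparisons of *Rps27l-FLAG* (1 without clone 4a3, *Grb10*), in IP against total of *Rps27-FLAG* (1 without replicate 1, *Igf2r*) and in the IP effect, and 0 in the others. The sign of the *Grb10* difference between fractions, which lies near 0, turned: in *Rps27l-FLAG* from -0.00656 to 0.00667 with DESeq2, 0.0176 with TMM over all libraries and 0.00783 with the clone as a block, with -0.00943 to 0.0151 when single clones were left out, and in *Rps27-FLAG* it was -0.000312 to 0.0102. The difference between the lines' IP effects on *Grb10* was -0.0166 without the replicate block and -0.0126 to 0.0152 without single clones. Over all transcripts, 4154 and 3128 passed with the clone as a block (572 and 313 without), 0 to 1809 and 0 to 318 when single clones were left out (89 to 149 for the IP effect, 0 to 1 in both total comparisons of *Rps27l-FLAG*), 1 and 137 with the replicate block in *Rps27-FLAG* against WT and *Rps27l-FLAG* against *Rps27-FLAG* (0 without), and 24 with DESeq2 or 0 without the block for the IP effect (151).

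Each line has 3 clones, and clones and libraries are the same unit in total RPFs, so a difference between clones of 1 line has no replicate culture behind it. Depth limits *Plagl1*, *Zrsr1*, *Sgce* and *Nnat*, and no DNA methylation, allele or mRNA level was analysed here.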
